A study of Homo sapiens with 12 samples.

Results

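The genes described here are 9 human genes for proteins that read acetylated lysine or that control the elongation of transcription: BRD2, BRD3, BRD7, BRD8, BRD9, BRPF1, BRPF3, CDK9 and HEXIM1. They were taken by symbol from the 58278 genes listed in each library, and all 9 were among the 24342 genes that passed the filter on low counts. The RNA came from HK2, a human line immortalized from the epithelium of the kidney's proximal tubule. Cells were left untreated (Ctrl), exposed for 3 h to the inflammatory cytokine TNF-α at a dose of 5 ng/mL (TN), or given the same TNF-α exposure and, for 24 h, a short-chain fatty acid (SCFA). Propionate (15 mM) or butyrate (3 mM) was added before TNF-α in the PRTN and BUTN groups and after it in the TNPR and TNBU groups. Each of the 6 groups had 2 libraries, which the study describes as biological replicates of a single line, and no group had an SCFA without TNF-α. In TNPR and TNBU the 24 h of SCFA followed TNF-α, so these groups ran longer from the start of TNF-α than TN. No group had TNF-α alone at that later time. The general treatment text of the labels names thapsigargin and JQ1, a compound that displaces BET proteins from acetylated histones, whereas the labels of single libraries name TNF-α and an SCFA, and the latter are followed here.

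Acetyl groups on histone lysines are added by acetyltransferases, removed by deacetylases and bound by protein modules such as the bromodomain. BRD2 and BRD3 belong to the BET proteins, which have paired bromodomains and bind acetylated histones at active genes. BRD7 and BRD9 are subunits of SWI/SNF chromatin remodelers (of the PBAF and the non-canonical BAF forms, respectively), BRD8 is a subunit of the TIP60 acetyltransferase complex, and BRPF1 and BRPF3 are scaffolds of acetyltransferase complexes of the MOZ, MORF and HBO1 family. CDK9 is the kinase of P-TEFb, which releases paused RNA polymerase II, and HEXIM1 holds P-TEFb inactive together with 7SK RNA. Butyrate and propionate are known inhibitors of histone deacetylases, and JQ1-like compounds are known to raise HEXIM1 mRNA in many cells.

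Total expected counts ranged from 27269986 to 33851130 per library, and 3 counts stood at 0.0867 to 0.112 CPM (counts of a library scaled to a common size, here scaled with TMM factors of 0.913 to 1.06). No replicate pair was as close as sampling noise allows, and the spread was widest in TNPR and TNBU, with a chi-square statistic per gene of 15.2 and 18.1 against 3.17 to 6.61 in the other groups. The epithelial keratin gene KRT8 was high in every group (725 CPM on average in TN), as was VIM, which encodes the mesenchymal filament protein vimentin (1683 CPM), whereas LRP2 and MME, which mark mature proximal tubule, were at 0 in all Ctrl and TN libraries. Summed over a list of 18 epithelial and proximal tubule markers that includes VIM, the level was 3645 to 3806 CPM without SCFAs and 3401 to 4702 CPM with them. Of these 18 genes, only 2 were at 0 in both Ctrl libraries, 3 in both TN libraries and 0 in both libraries of any SCFA group. Within that list 10 genes were called higher in all 4 SCFA groups vs TN and 4 lower. CDH1, which encodes E-cadherin, was 0.109 ± 0.0489 CPM in TN and 13.8 ± 0.677 CPM in PRTN (SD, n = 2), and KRT19 4.53 ± 0.0897 and 93.5 ± 3.30 CPM, whereas EPCAM was 57.1 ± 1.42 and 19.7 ± 0.667 CPM and PAX8 403 ± 15.6 and 158 ± 2.85 CPM. Of the leukocyte markers, 7 genes summed to 1.19 to 1.44 CPM without SCFAs and 3.20 to 6.23 CPM with them, with PTPRC and CD3E at or near 0 throughout, and 3 endothelial markers summed to 0.143 to 0.287 and 2.18 to 3.61 CPM. Of the 5 leukocyte markers tested, 2 were called higher in all 4 SCFA groups vs TN and 0 lower. All 3 endothelial markers were called higher in all 4, as were 18.4% of all tested genes. These marker levels moved with the SCFA groups, and their part in the results below was not tested.

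The members are spread over chromosomes 3, 5, 6, 9, 16 and 17 (GRCh38, positions of GENCODE release 44). BRD2 (ENSG00000204256.12) lies at chr6:32968594-32981505 on the plus strand, BRPF3 (ENSG00000096070.19) at chr6:36196744-36232790 on the plus strand, BRD8 (ENSG00000112983.17) at chr5:138139770-138178953 on the minus strand and BRD9 (ENSG00000028310.17) at chr5:850291-892801 on the minus strand. BRD3 (ENSG00000169925.16) lies at chr9:134030305-134068535 on the minus strand, CDK9 (ENSG00000136807.13) at chr9:127785679-127790792 on the plus strand, BRD7 (ENSG00000166164.15) at chr16:50313487-50368988 on the minus strand, BRPF1 (ENSG00000156983.15) at chr3:9731729-9748019 on the plus strand and HEXIM1 (ENSG00000186834.3) at chr17:45148475-45152099 on the plus strand. The promoters of 3 members are shown, picked by the values that follow: BRPF3 and BRD9 were lower in all SCFA groups, BRD9 starts back to back with a gene that was lower as well, and HEXIM1 was called in none of them. A link between these sequences and the levels was not tested. The sequences come from RefSeq (GRCh38.p14), run 5′ to 3′ on the strand of the gene and end at the base before its start. Capitals mark matches on either strand to a GC box, which was searched as the letters GGGCGG, to the box named for its own letters CCAAT, to the TATA box in the form TATAAA, and to the core bound by ETS factors, CCGGAAG.
BRPF3, chr6:36196494-36196743, plus strand: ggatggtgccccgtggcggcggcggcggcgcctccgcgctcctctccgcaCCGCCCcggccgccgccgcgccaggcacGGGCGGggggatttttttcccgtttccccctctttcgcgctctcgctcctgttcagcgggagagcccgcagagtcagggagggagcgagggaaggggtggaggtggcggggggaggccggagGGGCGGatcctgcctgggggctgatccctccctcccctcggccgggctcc
BRD9, chr5:892802-892883, minus strand: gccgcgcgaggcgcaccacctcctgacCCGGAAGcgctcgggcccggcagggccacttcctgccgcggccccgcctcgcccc
HEXIM1, chr17:45148225-45148474, plus strand: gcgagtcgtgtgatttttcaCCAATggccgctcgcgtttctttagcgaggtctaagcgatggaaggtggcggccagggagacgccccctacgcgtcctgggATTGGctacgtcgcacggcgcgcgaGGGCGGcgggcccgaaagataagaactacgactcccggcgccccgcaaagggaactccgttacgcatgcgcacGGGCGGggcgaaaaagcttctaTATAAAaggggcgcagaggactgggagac
The 250 bases before BRPF3 hold 3 GC boxes, those before HEXIM1 hold 2 GC boxes, 2 CCAAT boxes and 1 TATA box, and the 82 bases between BRD9 and its neighbour TRIP13 hold 1 ETS core. Neither an E-box (CACGTG) nor a CRE (TGACGTCA) was found in these 3 windows. Of 35116 RefSeq promoter windows of 250 bases, 42.6% hold a GC box, 32.0% a CCAAT box, 10.7% a TATA box, 8.52% an ETS core, 6.34% an E-box and 1.65% a CRE, and of their last 82 bases 5.02% hold an ETS core. GC content was 76.0% before BRPF3 and 62.4% before HEXIM1, where the median of all windows of 250 bases was 58.0%. In the 82 bases before BRD9 it was 81.7%, which that median does not match in length. These matches describe the sequence and are not evidence of binding.

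Per kilobase of annotated exon, BRD2 had the highest level of the 9 genes, at 30.2 CPM per kb on average over the 12 libraries. CDK9 followed at 18.8, HEXIM1 at 13.6, BRD7 at 12.9, BRD3 at 10.6, BRPF3 at 8.11, BRD8 at 7.05, BRPF1 at 4.53 and BRD9 at 3.15 CPM per kb. These are averages over groups that differ, and the order was not the same in each of them. In Ctrl, BRPF3 (13.9 CPM per kb) and BRD8 (12.8) stood above BRD3 (12.4), and in TN, BRD7 (13.9) stood above HEXIM1 (12.4). All 9 genes were well covered, from 565 expected counts (BRD9) to 9917 (BRD2) in a library.

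**Figure D1:**
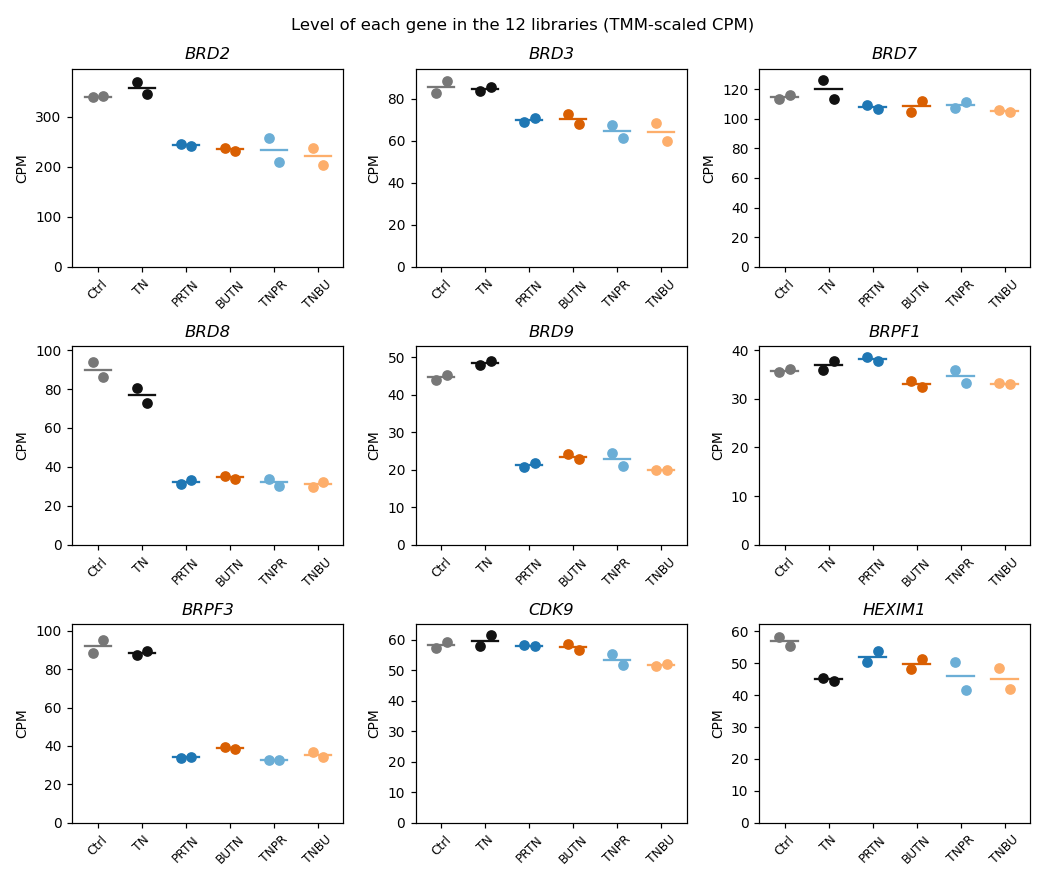
Level of the 9 genes in CPM (TMM-scaled) in each library, with 1 panel per gene, a point per library and a line at the mean of the 2 libraries of a group; each axis starts at 0. BRD8, BRD9 and BRPF3 sit at less than 40 CPM in all SCFA libraries, below every Ctrl and TN library of the same gene, while BRPF1, CDK9 and HEXIM1 overlap.

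TNF-α alone moved the 9 genes little. In TN vs Ctrl no member was called, where 0.764% of all tested genes were called higher and 0.534% lower (in limma-voom, with the adjusted p under 0.05 and the fold change above 1.5). The edgeR and DESeq2 tests also called 0 members, and 2 members had an unadjusted p under 0.05 in limma-voom. HEXIM1 stood at 58.4 and 55.4 CPM in Ctrl and at 45.4 and 44.5 CPM in TN. Its log2 fold change was -0.34 ± 0.097 (SE), with an adjusted p of 0.0828. BRD8 stood at 93.8 and 86.2 CPM in Ctrl and at 80.7 and 72.7 CPM in TN, a log2 fold change of -0.23 ± 0.076 with an adjusted p of 0.127. For the other 7 genes the log2 fold change lay between -0.05 (BRPF3) and 0.12 (BRD9).

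With an SCFA, BRD8, BRD9 and BRPF3 fell in all 4 groups against TN, BRD2 fell in 3 of them, and no member rose. In PRTN vs TN, 3 of the 9 members were called lower, where 16.7% of all tested genes were called lower and 23.9% higher. In BUTN vs TN 4 members were called lower, against 14.8% of all genes lower and 23.1% higher. In TNPR vs TN 4 were called lower, against 16.9% lower and 24.9% higher, and in TNBU vs TN 4, against 16.5% lower and 25.0% higher. The share of members called lower, 3 or 4 of 9, was thus above the background share in each contrast, but the number of genes is small. The background includes genes with far fewer counts than the members, and such genes are harder to call. The members were also chosen with earlier results of these data known, so the difference in share is a description only. Over the 9 members the median log2 fold change was -0.28, -0.27, -0.39 and -0.40 in PRTN, BUTN, TNPR and TNBU vs TN, and that of all tested genes was 0.09, 0.08, 0.12 and 0.09. The 4 contrasts share the TN libraries and are not independent of each other. In 6 members (BRD2, BRD3, BRD7, BRD8, BRD9 and BRPF3) all 8 SCFA libraries were below all 4 Ctrl and TN libraries, as in 23.4% of all tested genes, and in 0 members were they all above. In bulk RNA, less RNA per cell and fewer cells that make it cannot be told apart.

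**Figure D2:**
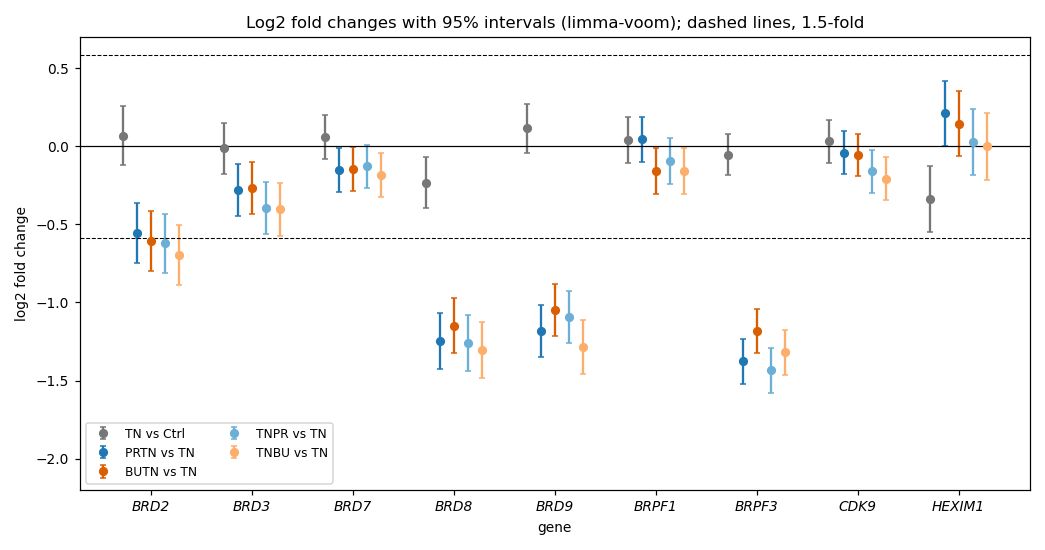
Log2 fold change of the 9 genes in TN vs Ctrl and in each SCFA group vs TN, with 95% intervals from limma-voom; the dashed lines stand at a fold change of 1.5. BRD8, BRD9 and BRPF3 lie between -1.43 and -1.05 in the SCFA contrasts, BRD2 lies near the lower dashed line, and the other genes lie nearer to 0.

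Against TN, BRPF3 had the largest fall in each SCFA group, though in TNBU it was close to BRD8 (log2 fold change -1.32 and -1.31). Against Ctrl, BRD8 fell more than BRPF3 in each SCFA group. The level of BRPF3 was 88.5 and 95.3 CPM in Ctrl and 87.6 and 89.5 CPM in TN. With an SCFA it was 33.7 and 34.5 CPM in PRTN, 39.6 and 38.3 CPM in BUTN, 32.7 and 32.8 CPM in TNPR and 37.0 and 34.0 CPM in TNBU. The lowest library without an SCFA was therefore more than 2 times the highest library with one. Against TN, BRPF3 was 2.598-fold lower in PRTN (log2 fold change -1.38 ± 0.066, adjusted p = 5.8e-09), 2.27-fold lower in BUTN (-1.18 ± 0.065, 2.3e-08), 2.70-fold lower in TNPR (-1.43 ± 0.066, 4.3e-09) and 2.50-fold lower in TNBU (-1.32 ± 0.067, 9.8e-09). BRPF1, its paralog, was called in no contrast. BRPF1 stood at 35.6 and 36.0 CPM in Ctrl, 36.0 and 37.8 CPM in TN, 38.5 and 37.7 CPM in PRTN, 33.8 and 32.4 CPM in BUTN, 36.0 and 33.3 CPM in TNPR and 33.2 and 33.0 CPM in TNBU. The SCFA libraries of BRPF1 thus lay on both sides of those of TN, with log2 fold changes from -0.16 to 0.05.

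Of the SWI/SNF subunits, BRD9 fell in all 4 SCFA groups and BRD7 was not called in any. BRD9 stood at 44.02 and 45.4 CPM in Ctrl, 48.0 and 48.9 CPM in TN, 20.8 and 21.8 CPM in PRTN, 24.1 and 22.8 CPM in BUTN, 24.4 and 21.1 CPM in TNPR and 19.8 and 20.02 CPM in TNBU. The groups with and without an SCFA did not overlap. Against TN it was 2.27-fold lower in PRTN (log2 fold change -1.18 ± 0.077, adjusted p = 6.9e-08), 2.07-fold lower in BUTN (-1.05 ± 0.076, 2.2e-07), 2.13-fold lower in TNPR (-1.09 ± 0.077, 1.3e-07) and 2.43-fold lower in TNBU (-1.28 ± 0.080, 5.1e-08). BRD7 ranged from 113 to 126 CPM without SCFAs and from 105 to 112 CPM with them, so its libraries were ordered the same way over a much smaller range. Its log2 fold change against TN was -0.15, -0.14, -0.13 and -0.18 in PRTN, BUTN, TNPR and TNBU, and it passed the adjusted p of 0.05 in TNBU alone (0.0272, a fold change of 1.14), so it was not called.

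BRD8 was 93.8 and 86.2 CPM in Ctrl and 80.7 and 72.7 CPM in TN, against 31.4 and 33.2 CPM in PRTN, 35.4 and 33.7 CPM in BUTN, 33.6 and 30.4 CPM in TNPR and 29.7 and 32.2 CPM in TNBU. The highest SCFA library was far below the lowest library without one. BRD8 was 2.37-fold lower than TN in PRTN (log2 fold change -1.25 ± 0.081, adjusted p = 6.9e-08), 2.22-fold lower in BUTN (-1.15 ± 0.081, 1.7e-07), 2.39-fold lower in TNPR (-1.26 ± 0.082, 6.3e-08) and 2.47-fold lower in TNBU (-1.31 ± 0.083, 6.1e-08).

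Among the BET genes, BRD2 stood at 340 and 341 CPM in Ctrl and 369 and 346 CPM in TN. It was 246 and 241 CPM in PRTN, 237 and 232 CPM in BUTN, 257 and 210 CPM in TNPR and 238 and 204 CPM in TNBU. All SCFA libraries were below all others, and in both groups treated after TNF-α the libraries of replicate 2 were the lower ones. BRD2 fell 1.52-fold in BUTN (log2 fold change -0.61 ± 0.088, adjusted p = 8.0e-05), 1.54-fold in TNPR (-0.62 ± 0.088, 5.6e-05) and 1.62-fold in TNBU (-0.70 ± 0.089, 2.4e-05) vs TN. In PRTN it was 1.47-fold lower (-0.55 ± 0.088, adjusted p = 0.000149), which is under the fold threshold. These values sit at that threshold, so the calls of BRD2 moved with single libraries. The call in TNPR was lost without TNPR replicate 2 (-0.53), and BRD2 was called in PRTN without any of TN replicate 2, PRTN replicate 1 or the libraries of BUTN, TNPR and TNBU, each left out in turn (-0.63 to -0.59).

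BRD3 was 82.7 and 88.5 CPM in Ctrl, 83.9 and 85.8 CPM in TN, 69.1 and 70.8 CPM in PRTN, 72.9 and 68.1 CPM in BUTN, 67.7 and 61.6 CPM in TNPR and 68.5 and 60.1 CPM in TNBU. Here too the groups with and without an SCFA did not overlap, but the difference was small. The log2 fold change against TN was -0.28 ± 0.076 in PRTN (adjusted p = 0.00744), -0.27 ± 0.076 in BUTN (0.0096), -0.39 ± 0.077 in TNPR (0.000735) and -0.40 ± 0.077 in TNBU (0.000652). All 4 passed the adjusted p and none reached a fold change of 1.5.

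CDK9 ranged from 51.3 to 61.4 CPM over all libraries. It stood at 57.2 and 59.3 CPM in Ctrl, 57.9 and 61.4 CPM in TN, 58.2 and 57.9 CPM in PRTN, 58.4 and 56.4 CPM in BUTN, 55.2 and 51.6 CPM in TNPR and 51.3 and 52.0 CPM in TNBU. The groups treated before TNF-α overlapped with TN, and those treated after it, which also ran longer from the start of TNF-α, lay below. The log2 fold change against TN was -0.04, -0.05, -0.16 (adjusted p = 0.0452) and -0.21 (adjusted p = 0.0146) in PRTN, BUTN, TNPR and TNBU, all far under a fold change of 1.5. HEXIM1 stood at 50.4 and 53.8 CPM in PRTN and 48.2 and 51.4 CPM in BUTN, above the 45.4 and 44.5 CPM of TN. It stood at 50.5 and 41.5 CPM in TNPR and 48.5 and 41.9 CPM in TNBU, on both sides of TN. In both of these groups the library of replicate 2 was the lower one. Its log2 fold change against TN was 0.21 ± 0.096 in PRTN (95% interval 0.0017 to 0.42, adjusted p = 0.0801), 0.15 in BUTN (-0.06 to 0.36), 0.03 in TNPR (-0.18 to 0.24) and 0.0022 in TNBU (-0.21 to 0.22). A change of HEXIM1 was not called in any direction, and the intervals leave out a rise of 1.5-fold.

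Against Ctrl the picture was similar. BRD8, BRD9 and BRPF3 were called lower in all 4 SCFA groups, and BRD2 in TNBU. That is 3 of 9 members in PRTN, where 16.9% of all tested genes were called lower, 3 in BUTN (14.9%), 3 in TNPR (16.8%) and 4 in TNBU (16.5%), with 0 members higher. For BRD8, which was 1.17-fold lower in TN than in Ctrl without passing the test, the fold change against Ctrl ran from 2.603 in BUTN to 2.90 in TNBU. For BRD9 it ran from 1.91 in BUTN to 2.24 in TNBU, and for BRPF3 from 2.36 in BUTN to 2.80 in TNPR. BRD2 was 1.40-fold to 1.54-fold lower, and without TNBU replicate 2 its call in TNBU was lost (log2 fold change -0.53). In TNPR BRD2 was under the fold threshold (-0.55) and was called when any of 7 single libraries was left out: PRTN replicate 1 or 2, BUTN replicate 1 or 2, TNPR replicate 1, or TNBU replicate 1 or 2 (-0.73 to -0.59). The log2 fold change of HEXIM1 against Ctrl was -0.13 in PRTN and -0.19 in BUTN, and -0.31 and -0.34 in TNPR and TNBU, and it passed the adjusted p in TNPR (0.014) and TNBU (0.00964) but not the fold threshold.

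Propionate and butyrate, SCFAs that differ by 1 carbon in chain length, were given at different doses (15 mM and 3 mM), so the values stand side by side as those of the doses used. No member was called between them. In PRTN vs BUTN 0.168% of all tested genes were called in either direction, and 2 members had an unadjusted p under 0.05. BRPF1 was higher by a log2 fold change of 0.21 in PRTN (95% interval 0.06 to 0.35, adjusted p = 0.18) and BRPF3 was -0.19 (-0.34 to -0.04, adjusted p = 0.228). Neither passed the test. In TNPR vs TNBU 0.00822% of all genes were called, and 1 member, BRD9, had an unadjusted p under 0.05 (0.19, 0.0076 to 0.37, adjusted p = 0.566). The edgeR and DESeq2 tests called 0 members in both contrasts. Over the 9 genes the 95% intervals ran from -0.34 to 0.35 before TNF-α and from -0.27 to 0.37 after it, which leaves out differences of 1.5-fold but not smaller ones.

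The time of addition gave no member call either. The groups treated after TNF-α also ran longer from its start, so order of addition and time since TNF-α cannot be told apart. In TNPR vs PRTN 0.16% of all genes were called, and 0 members had an unadjusted p under 0.05. In TNBU vs BUTN 0.267% were called, and 2 members had an unadjusted p under 0.05. These were BRD9, with a log2 fold change of -0.24 (95% interval -0.42 to -0.05, adjusted p = 0.229), and CDK9, with -0.15 (-0.29 to -0.01, adjusted p = 0.297). The difference between both timing effects was called in 0.0% of all genes and in 0 members by limma-voom, edgeR or DESeq2. BRD9 alone had an unadjusted p under 0.05 there, with a difference of 0.33 on the log2 scale (0.07 to 0.58, adjusted p = 1.00). Over the 9 genes the intervals ran from -0.39 to 0.27 for propionate and from -0.42 to 0.15 for butyrate.

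Members that share a family or a complex kept different proportions to each other with an SCFA, which the ratio of their CPM within a library shows without any scaling between libraries. The ratio of BRPF3 to BRPF1 was 2.49 and 2.64 in Ctrl and 2.43 and 2.37 in TN. Before TNF-α, propionate gave 0.876 and 0.914 (PRTN) and butyrate 1.17 and 1.18 (BUTN), and after it the ratios were 0.910 and 0.988 (TNPR) and 1.11 and 1.03 (TNBU). BRPF3 was thus the more abundant of both by counts in all libraries without an SCFA, and close to BRPF1 in the others.

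The ratio of BRD9 to BRD7 was 0.387 and 0.392 in Ctrl and 0.380 and 0.432 in TN, and 0.187 to 0.230 in the 8 SCFA libraries. The ratio of BRD3 to BRD2 lay between 0.227 and 0.260 without SCFAs and between 0.264 and 0.307 with them, so the proportion moved toward BRD3 by a log2 difference of 0.28 against TN. The ratio of HEXIM1 to CDK9 was 1.02 and 0.935 in Ctrl and 0.785 and 0.726 in TN, and with SCFAs it spanned 0.805 to 0.945, above both TN libraries and reaching the lower Ctrl library. For each of these 4 ratios the 8 SCFA libraries lay wholly on one side of the 2 TN libraries (two-sided exact permutation test, p = 0.0444 for each and also after adjustment over the 4, the smallest p that 8 against 2 libraries can give). The pairs were chosen after the levels had been seen, so these p-values describe the separation and add no independent support.

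**Figure D3:**
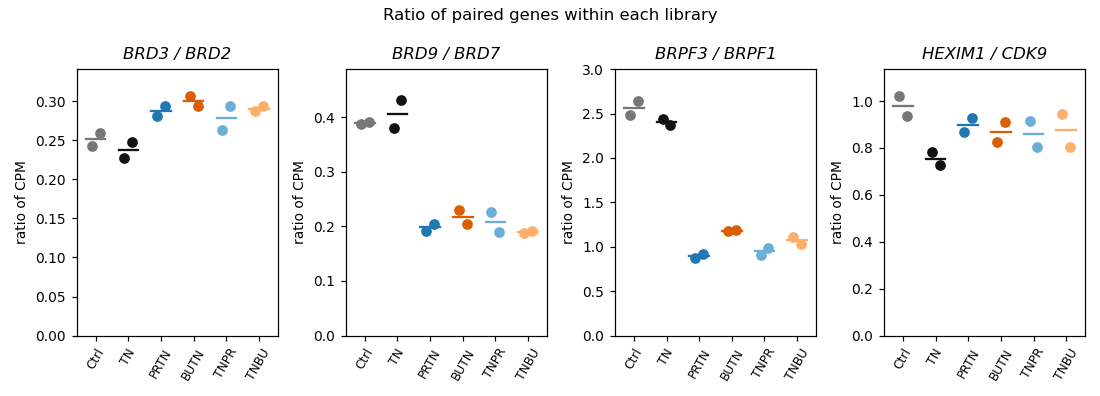
Ratio of the CPM of paired genes within each library (linear axes from 0), with a point per library and a line at the group mean. The BRPF3 to BRPF1 ratio is 2.37 to 2.64 in the Ctrl and TN libraries and 0.876 to 1.18 in the SCFA libraries, and the HEXIM1 to CDK9 ratio is lowest in TN.

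Several members overlap or adjoin other genes, and whether RSEM was told the strand is not given in the sources used here, so reads from shared exonic bases could have gone to either gene. BRD8 shares 132 exonic bases with KIF20A, a mitotic kinesin on the other strand, which stood at 119 to 144 CPM without SCFAs and 35.8 to 55.6 CPM with them and was called lower in all 4 SCFA groups vs TN. BRD9 and TRIP13, a meiotic and mitotic checkpoint ATPase, start head to head on the 82 bases printed above and share no exonic base. TRIP13 was 42.0 to 50.2 CPM without SCFAs and 17.4 to 20.8 CPM with them, and its log2 fold change against TN lay between -1.38 and -1.30, near that of BRD9. BRD9 also shares 222 bases with ZDHHC11 on its own strand, which rose from 0.580 to 0.815 CPM to 2.07 to 2.65 CPM.

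BRD7 shares 3593 exonic bases with ADCY7, an adenylyl cyclase on the other strand. ADCY7 fell from 56.9 to 65.3 CPM to 19.6 to 35.9 CPM in the SCFA libraries, while BRD7 was not called. BRD3 shares 1283 exonic bases with BRD3OS on the other strand, which was called in no SCFA contrast (27.4 to 32.2 CPM without and 30.5 to 34.2 CPM with SCFAs). BRD2 shares 55 bases with HLA-DMA, an antigen-loading gene on the other strand that rose from 2.83 to 4.08 CPM to 12.7 to 17.3 CPM. BRPF3-AS1, which covers the promoter of BRPF3 from the other strand and shares no exonic base with it, was called higher in PRTN, TNPR and TNBU vs TN but not in BUTN (adjusted p = 0.0508), at a low level (0.261 to 0.549 CPM without and 0.532 to 1.60 CPM with SCFAs) at which the libraries overlapped. The part of these neighbours in the counts of the members was not tested.

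Around the 9 members, 40 of the 42 bromodomain genes were tested, and 13 were called lower and 2 higher in all 4 SCFA groups vs TN. Over all tested genes 11.9% were called lower and 18.4% higher in all 4. BRD8, BRD9 and BRPF3 are 3 of the 13. The deepest falls were those of BAZ2B, a chromatin reader (46.5 ± 1.02 CPM in TN and 9.98 ± 0.350 CPM in PRTN, SD, n = 2), BAZ1A, a subunit of ISWI remodelers (213 ± 12.1 and 68.6 ± 0.143 CPM), and ZMYND11, a reader of methylated histone H3.3 (62.7 ± 3.12 and 18.6 ± 1.07 CPM). The rises were TRIM66 (5.08 ± 0.456 and 10.4 ± 0.0286 CPM) and CECR2, a remodeler subunit that was near 0 in TN (0.0538 ± 0.0762 CPM) and at 2.50 to 3.03 CPM on average in the SCFA groups. Of 7 other acetyl-lysine readers, which use YEATS or double PHD domains, 2 were called higher in all 4 and 0 lower. These were DPF1 (2.06 ± 0.0242 CPM in TN and 11.6 ± 0.351 CPM in PRTN) and, named after its values were seen, DPF3, at 0.0186 CPM in TN and 0.526 to 1.01 CPM in the SCFA groups.

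Partners in the complexes of the members were counted in the same way, beside 11.9% of all tested genes lower and 18.4% higher in all 4. These lists are small, and the background includes genes with few counts, which are harder to call. The counts are therefore a description only. Of 12 tested partners in PBAF and non-canonical BAF (14 were listed, 2 were not tested), 6 were called lower in all 4 and 0 higher, with ARID2 (48.7 ± 2.15 CPM in TN and 17.3 ± 0.0459 CPM in PRTN), SS18 (29.7 ± 3.24 and 10.1 ± 0.795 CPM) and PBRM1 (66.9 ± 0.295 and 28.8 ± 1.67 CPM) falling most. PBRM1 is also in the bromodomain list. Of 16 TIP60 partners of BRD8, 5 were called lower in all 4 and 0 higher. They included the enhancer of polycomb genes EPC1 (27.4 ± 1.44 and 6.81 ± 0.601 CPM) and EPC2 (40.5 ± 1.69 and 12.7 ± 0.268 CPM) and the acetyltransferase KAT5 itself (38.2 ± 0.0770 and 17.5 ± 0.124 CPM). Of 6 partners of BRPF1 and BRPF3, 2 were called lower in all 4, the acetyltransferases KAT6B (38.2 ± 1.09 and 9.23 ± 0.0710 CPM) and KAT7 (45.1 ± 0.168 and 25.6 ± 0.0707 CPM).

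Of the 7 genes for P-TEFb and the proteins of its 7SK complex, 2 were called lower in all 4 SCFA groups and 0 higher. Over all tested genes the shares were 11.9% and 18.4%, and with 7 genes the count is a description only. MEPCE, which caps and holds 7SK RNA, was 82.8 ± 2.26 CPM in TN (SD, n = 2), 14.05 ± 0.0925 CPM in PRTN, 16.0 ± 0.289 CPM in BUTN, 13.6 ± 1.26 CPM in TNPR and 15.1 ± 2.05 CPM in TNBU, with log2 fold changes from -2.60 to -2.37. CCNT2, a cyclin partner of CDK9, was 84.7 ± 8.44 CPM in TN and 37.0 to 40.4 CPM on average in the SCFA groups (log2 fold change -1.20 to -1.06). CCNT1, the other cyclin, fell in TNPR and TNBU (-0.78 and -0.80) and was under the fold threshold in PRTN and BUTN (-0.49 and -0.55). LARP7, which binds 7SK RNA, lay between -0.23 and -0.14 and was not called, and HEXIM2, the paralog of HEXIM1, was low (1.054 ± 0.0533 CPM in TN, 1.72 to 1.86 CPM on average in the SCFA groups) and not called, with log2 fold changes from 0.65 to 0.81. Among the kinase, its cyclins and its 7SK partners, the genes that fell were thus MEPCE and the cyclins, while CDK9 and HEXIM1 were not called.

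In the super elongation complex, which brings P-TEFb to polymerase, 3 of 9 genes were called higher in all 4 and 0 lower. Over all tested genes 18.4% were called higher and 11.9% lower in all 4. AFF4, named after its values were seen, was called lower in PRTN, TNPR and TNBU (-0.59, -0.82 and -0.66). In BUTN AFF4 was under the fold threshold (-0.49). AFF1, named in the same way, lay between -0.41 and -0.33 and was not called. The 3 that rose were ELL2 (14.6 ± 1.10 CPM in TN and 29.7 ± 1.10 CPM in PRTN), ELL3 (2.005 ± 0.155 and 4.67 ± 0.0640 CPM) and EAF2 (2.01 ± 0.311 and 6.001 ± 0.356 CPM). Of 23 pausing and elongation factors, 1 was called higher in all 4, TCEA2 (15.0 ± 1.11 and 35.2 ± 0.834 CPM), and 1 lower, the NELF subunit NELFCD (150 ± 2.88 and 89.9 ± 0.774 CPM), and 16 were called in none. In TN vs Ctrl 0 genes of any of these lists were called. Some lists share genes, and BRD9 and BRPF3 are also in a list of chromatin genes that the study drew up on these libraries, so that their direction there is not independent evidence.

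**Figure D4:**
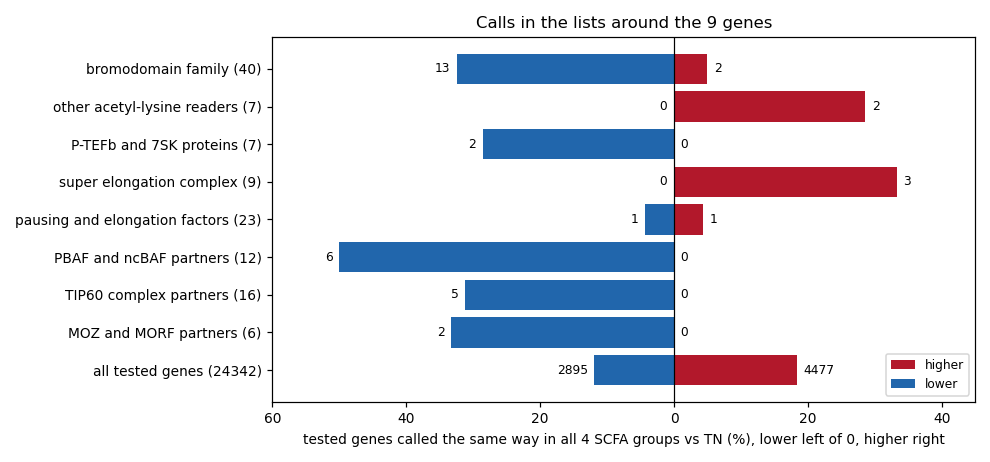
Percent of the tested genes of each list that limma-voom called lower (bars to the left) or higher (bars to the right) in all 4 SCFA groups vs TN; the number tested is in parentheses and the number called stands at each bar. Among all tested genes 11.9% were lower and 18.4% higher; of the PBAF and ncBAF partners 6 of 12 were lower, and in the super elongation complex 3 of 9 were higher.

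Among the members, log2 CPM over the 12 libraries correlated most between BRD8 and BRPF3 (Pearson r = 0.985), and least between BRD7 and HEXIM1 (r = 0.0398). The points share libraries and the split between SCFA and other groups, so r is a description. Of 12314 genes with at least 1 CPM on average and an established name, those most like BRPF3 were SIRPA, PHF2 and GPR143 (r = 0.999 each), those most like BRD9 were MAPKAPK5 (0.997), FNBP4 and AKAP8 (0.995 each), and those most like BRD8 were SPAG5, ITGB6 and INPPL1 (0.996 each). BRD2 was most like RBAK (0.991), ZNF160 and ZNF561 (0.990 each), and BRD3 most like WASF2 (0.989), REV1 (0.986) and SMCR8 (0.985). The other members had looser matches: DUS4L (0.940), LCORL (0.926) and PCNP (0.924) for BRD7, INTS9 (0.922), WDR37 (0.914) and CRAMP1 (0.858) for BRPF1, UPP1 (0.932), ATP1B1 (0.921) and EPHA2 (0.912) for CDK9, and CCDC8 (0.927), ZBTB7B (0.915) and BIN1 (0.892) for HEXIM1.

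The scaling between libraries turned the direction of some small differences and of none of the called ones. With library size alone as the scaling, the median log2 fold change of all tested genes moved from 0.09 to 0.24 in PRTN vs TN, from 0.08 to 0.23 in BUTN, from 0.12 to 0.29 in TNPR and from 0.09 to 0.29 in TNBU. Of the members, BRD7 then stood at 0.0054, 0.01, 0.05 and 0.01, and CDK9 and BRPF1 also changed sign in part. CDK9 no longer passed the adjusted p in TNPR (0.013, adjusted p = 0.87) and TNBU (-0.010, adjusted p = 0.907), nor did BRD7 in TNBU (adjusted p = 0.904). BRPF1 stood at 0.20 in PRTN (adjusted p = 0.0178), which passed the adjusted p but not the fold threshold. HEXIM1 then stood at 0.37 in PRTN (adjusted p = 0.00487) and 0.30 in BUTN (adjusted p = 0.0164), so it passed the adjusted p there but not the fold threshold, and BRD3 no longer passed the adjusted p in PRTN (0.178) and BUTN (0.211). Under the same scaling, BRD8, BRD9 and BRPF3 stayed called (-1.26 to -0.89). BRD2 moved to between -0.50 and -0.40 and was called in no SCFA group vs TN. Relative to the median of all genes under that scaling, the log2 fold change of BRD2 was -0.79 to -0.64 and that of BRD7 -0.28 to -0.22. Under it 6785 genes were called higher and 3127 lower in PRTN vs TN, 6579 and 2656 in BUTN, 7232 and 3132 in TNPR, 7329 and 2849 in TNBU, and 144 and 181 in TN vs Ctrl, where TMM gave 5824 and 4057, 5620 and 3613, 6067 and 4117, 6094 and 4027, and 186 and 130.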

How the data were processed

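In 6 groups of 2, 12 stranded mRNA libraries were sequenced by the authors (Illumina HiSeq). Reads were aligned by the authors with STAR (2.6.1a in the submitters' processing notes; build GRCh38), and the authors deposited expected counts per gene, estimated with RSEM on GENCODE release 26. The RSEM version and strand setting are not given in the sources used here. The expected counts were not normalized, and 19.3% are not whole numbers.

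Counts were tested with limma 3.58.1 (voom) and TMM factors from edgeR 4.0.16 in R 4.3.3. A geometric mean of the counts (1 added before and subtracted after) under 1 removed 33936 of 58278 genes. All 12 libraries entered 1 fit of 6 group means, without a replicate block, with Benjamini-Hochberg adjustment over 24342 genes. Calls needed an adjusted p under 0.05 and a fold change above 1.5. Intervals are 95% limits of the moderated statistic, and errors of log2 fold changes are standard errors. CPM was scaled with the TMM factors. The study calls the 2 libraries of a group biological replicates, and separate cultures are not stated in the sources used here. The p-values therefore measure only the spread between these libraries. On simulated counts for TN vs Ctrl (24342 genes, changed genes with a mean count of at least 100), 92.5% of 80 genes changed 2-fold and 98.8% of 80 changed 4-fold were called, with 3 false calls. Genes changed by just over 1.5-fold were simulated too, but their recovery was not scored. These figures therefore do not cover changes of the size seen for BRD2.

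Alternatives were edgeR's quasi-likelihood test and DESeq2 1.42.0 (counts rounded), relative log expression or library size scaling, no filter or edgeR's default filter, only the groups compared, the replicate number as a block, other fold thresholds and each library left out. The members and lists were chosen with earlier results of these data known. Named beside the members were 5 P-TEFb and 7SK genes, per list up to 3 rises and 3 falls of largest mean log2 fold change among genes called in all 4 SCFA contrasts with at least 1 CPM, and the 3 genes most like each member. Precision of shares and counts of 3 covers counting error only. Exons and positions come from GENCODE release 44, and promoters from RefSeq.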

Additional observations from a re-analysis of the deposited data

How the results depend on the processing

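BRD8, BRD9 and BRPF3 kept their direction and their call against TN under all 22 alternatives, with log2 fold changes from -1.49 (BRPF3 in TNPR) to -0.89 (BRD9 in BUTN). At a fold change over 2, BRD9 lost its call against Ctrl in BUTN (-0.93) and TNPR (-0.97). Of 2772 values of single members under an alternative, 2726 stayed on their side of the threshold, 12 lost a call, 34 gained one and 0 called values changed sign, while 109 uncalled values did. The calls of BRD2 were lost under library size scaling and at a fold change over 2. Without a fold threshold, the number of members called lower was 5 in PRTN vs TN, 7 in TNBU vs TN, 5 in PRTN vs Ctrl, 5 in BUTN vs Ctrl, 6 in TNPR vs Ctrl and 7 in TNBU vs Ctrl, since that alternative drops the fold criterion. These were 6 of 616 such counts under an alternative, and the others stayed within 1.5 times. The shares of all tested genes given above hold at the 1.5-fold threshold only. They cannot be set beside the counts without a fold threshold, which say nothing about the members relative to other genes. Leaving out a library moved the number of members called lower from 3 to 4 at most in PRTN vs TN and TNPR vs Ctrl and from 4 to 3 in TNPR vs TN and TNBU vs Ctrl. Deviations of same-numbered libraries correlated from -0.08 to 0.24 over 15 pairs of groups, with 1 over 0.1 (TNPR and TNBU, 0.24), so the numbers were not taken to pair the libraries across all groups. With the replicate block 3, 4, 4 and 4 members were called lower in PRTN, BUTN, TNPR and TNBU vs TN. Of the list counts, 97 of 1408 moved by over 1.5 times, and of the counts over all genes 121 of 616. With 2 libraries per group, the intervals of the members between SCFA groups left out differences of 1.5-fold but not smaller ones.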
